A study of Mus musculus with 10 samples.

Results

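The leak channel genes examined here were 10 genes named by symbol: Nalcn, Unc79 and Unc80 of the sodium leak channel complex, and the potassium channel genes Kcnk1, Kcnk12, Kcnk2, Kcnk4, Kcnk10, Kcnk3 and Kcnk9. All 10 were found among the 55367 listed genes, of which 21231 had at least 1 fragment in at least 1 neuron. RNA was taken by patch pipette from 10 inspiratory neurons of the preBötzinger complex (preBötC), the brainstem site of inspiratory rhythm, in slices from neonatal mice, and each neuron gave 1 sequencing library. The 10 neurons comprised 4 Type-1 neurons (4, 5, 6 and 7), 1 Type-2 neuron (1) and 5 Unknown neurons (2, 3, 8, 9 and 10), numbered as the samples were. Type-1 neurons were recognised by a long inspiratory drive latency and an A-type potassium current, Type-2 neurons by a short latency and a hyperpolarization-activated current, and Unknown neurons fell in neither class. Neurons 1, 5, 6 and 7 were Dbx1-derived (Dbx1 Cre crossed with the Cre-dependent GCaMP6f reporter Ai148), so their label marks any cell whose precursor expressed Dbx1, and neurons 2, 3, 4, 8, 9 and 10 came from WT CD-1 mice. The genotypes follow the labels, and some figure legends of the study divide the samples between the genotypes in another way. Neurons 1, 3, 5 and 8 were recorded at P0, neuron 10 at P1, neurons 2 and 9 at P2, and neurons 4, 6 and 7 at P3. The labels name no animal, so each group counted as 1 sample, no test was made, and means ± SD over neurons describe these neurons only.

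Leak channels are open at rest and set the voltage from which a neuron is brought to threshold. NALCN is a sodium-permeable pore that depolarizes neurons, and it works in a complex with the large proteins UNC79 and UNC80 and the membrane protein FAM155A. Mice without Nalcn, and mice without Unc79, die soon after birth with a disturbed breathing rhythm. The Kcnk genes encode K2P channels, whose subunits carry a pair of pore domains each and pass a potassium current that holds the membrane negative. They fall into families: TWIK (Kcnk1), the halothane-inhibited THIK (Kcnk12), the TREK and TRAAK channels opened by membrane stretch and arachidonic acid (Kcnk2, Kcnk10 and Kcnk4), and the acid-sensitive TASK channels (Kcnk3 and Kcnk9).

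The 3 genes of the NALCN complex lie on different chromosomes and, as shown further on, Unc79 and Unc80 reached their higher levels in different neurons, so the 250 bases before the RefSeq start of each are given. They are RefSeq promoter sequences on GRCm38.p6, written 5′ to 3′ on the gene's strand, with each CpG in capitals. Nalcn is at chr14:123627145-123627394 (minus strand), Unc79 at chr12:102948609-102948858 (plus strand) and Unc80 at chr1:66467684-66467933 (plus strand), upstream of the GENCODE start given with the gene, since the annotations differ there.
Nalcn: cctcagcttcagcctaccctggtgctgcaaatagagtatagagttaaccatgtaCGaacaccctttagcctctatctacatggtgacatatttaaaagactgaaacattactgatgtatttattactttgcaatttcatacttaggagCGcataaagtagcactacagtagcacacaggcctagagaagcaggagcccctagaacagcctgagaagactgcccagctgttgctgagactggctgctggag
Unc79: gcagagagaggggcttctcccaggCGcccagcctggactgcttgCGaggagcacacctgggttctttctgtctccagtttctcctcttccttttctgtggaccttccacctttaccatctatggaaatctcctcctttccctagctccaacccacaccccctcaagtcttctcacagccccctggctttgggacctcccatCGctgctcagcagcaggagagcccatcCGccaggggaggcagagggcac
Unc80: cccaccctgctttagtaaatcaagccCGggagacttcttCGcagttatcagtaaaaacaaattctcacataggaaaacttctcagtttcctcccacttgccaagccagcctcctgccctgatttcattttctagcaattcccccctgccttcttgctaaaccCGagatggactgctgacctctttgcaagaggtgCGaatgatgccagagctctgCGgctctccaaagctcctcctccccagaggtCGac
The Nalcn window held 2 CpG at 45.2% G and C, that of Unc79 4 at 59.6%, and that of Unc80 6 at 51.2%. Over 32851 RefSeq promoters of the same length the medians were 6 CpG and 52.4%. On both strands, none of these 3 windows held the GC box GGGCGG, the E-box CACGTG or the cAMP response element TGACGTCA, which were present in 32.7%, 6.02% and 1.55% of all promoters. None of these motifs contains another, and such a match or its absence describes the letters of the window and nothing about a factor. Promoter entries were matched for 8 of the 10 genes.

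The libraries held between 21392146 and 36629393 fragments counted on genes, so a gene with no fragment could hold up to 3 counts by chance, or between 0.0819 and 0.14 counts per 1000000 fragments. Levels are given in FPKM (fragments per kilobase of gene length per 1000000 fragments on genes), and a gene was called present in a neuron at 1 FPKM or more. The study named samples 1 to 4 as those with the least cDNA. Neuron 4 stood apart by its markers: all 8 of 8 microglial genes were present in it, with a summed level of 14800 FPKM against 0.625 to 2030 FPKM in the other neurons. Its neuronal list summed to 58.4 FPKM against 761 to 4670 FPKM elsewhere, none of either list was at 0 in it, and Slc17a6, the vesicular glutamate transporter, was at 0.157 FPKM, against 101, 158 and 156 FPKM in the Type-1 neurons 5, 6 and 7. Neuron 2 came next, with 7 of the 8 microglial genes present and a sum of 2030 FPKM, while its neuronal list summed to 2070 FPKM. The part of these markers in the results of neurons 2 and 4 was not tested. The comparison of neuron types is given with and without neuron 4. In that of genotypes, the Kcnk12 mean is given without it.

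Of the 100 values (10 genes in 10 neurons), 42 reached 1 FPKM, 6 lay between 0.1 and 1 FPKM, and 52 were lower. This split was close to that of all 16546 genes present in at least 1 neuron, of whose values 45% reached 1 FPKM, 7.01% lay between and 48% were lower. The number of these 10 genes present was 0, 3, 2, 1, 7, 6, 6, 7, 3 and 7 in neurons 1 to 10. In neurons 1 to 4 this came to 6 of 40 values (15%), where 34.1% of the values of all 16546 genes reached the limit. In neurons 5 to 10 it came to 36 of 60 values (60%), against 52.3% for all those genes. The lower yield of the first 4 libraries and the low number of leak channel genes in them cannot be told apart.

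**Figure D1:**
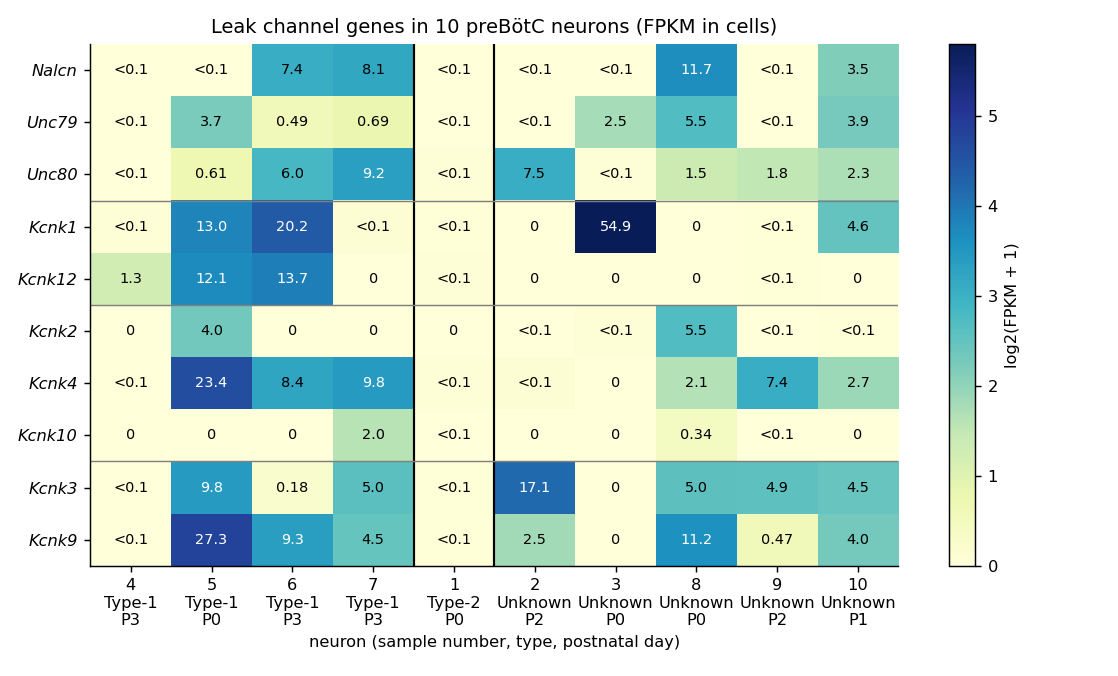
Heat map of the 10 leak channel genes (rows, grouped by family) in the 10 neurons (columns, with sample number, type and postnatal day). Colour gives log2(FPKM + 1) and the figures in the cells FPKM. Neuron 1 (Type-2) has no gene at 1 FPKM and neuron 4 has 1, while neurons 5, 8 and 10 have 7 each.

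Across neurons, 8 of the 10 genes were present in at least 3 neurons, where 49.1% of all genes with a fragment were. Present in at least 6 neurons were 4 of them, Unc80, Kcnk4, Kcnk3 and Kcnk9, against 29.2% of all genes with a fragment. For 4 of the 10, Kcnk1, Kcnk12, Kcnk2 and Kcnk10, a single neuron held more than 50 percent of the summed FPKM, which was so for 48.5% of genes present in at least 1 neuron.

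Nalcn, the pore of the sodium leak channel (ENSMUSG00000000197.8, chr14:123276634-123627144 on GRCm38, minus strand), was present in neurons 6, 7, 8 and 10 and in no other. Its levels there were 7.44, 8.12, 11.7 and 3.47 FPKM, from 3448, 3070, 4576 and 1559 fragments. The remaining 6 neurons, 1, 2, 3, 4, 5 and 9, held 1, 1, 3, 4, 3 and 4 fragments, or 0.0123 FPKM at most. The exact Poisson 95% intervals of the 4 positive neurons, which cover counting error only because the reads carry no molecular identifiers, were 7.2 to 7.69, 7.84 to 8.42, 11.4 to 12.1 and 3.3 to 3.65 FPKM, so none overlapped another. Nalcn was thus split across both larger classes, with 2 of 4 Type-1 (2 of 3 without neuron 4) and 2 of 5 Unknown neurons positive. Type-1 neuron 5, with 36629393 fragments the deepest library, was among the negative ones.

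Of the auxiliary subunit genes, Unc80 was present in all 4 neurons with Nalcn and in 2 others, and Unc79 was present in 2 of those 4 and in 2 others. Unc79 (ENSMUSG00000021198.16, chr12:102948859-103184065, plus strand) was at 2.45, 3.71, 5.54 and 3.88 FPKM in neurons 3, 5, 8 and 10, and at 0.492 and 0.688 FPKM in neurons 6 and 7. Those lower levels rested on 221 and 252 fragments, whereas neurons 1, 2, 4 and 9 held between 1 and 6. The intervals of neurons 5 (3.55 to 3.88 FPKM) and 10 (3.7 to 4.07 FPKM) overlapped, and those of the other positive neurons did not.

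Unc80, which links UNC79 to the pore (ENSMUSG00000055567.18, chr1:66468367-66699148, plus strand), was present in 6 neurons. Neurons 2, 6 and 7 had 7.47, 6.05 and 9.16 FPKM, and neurons 8, 9 and 10 had 1.53, 1.84 and 2.26 FPKM. In neuron 5 it stood at 0.615 FPKM from 325 fragments, and neurons 1, 3 and 4 held 11, 15 and 5 fragments. Unc80 was therefore the most widely present of the 3 genes, and the only one present in neurons 2 and 9.

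Neurons 8 and 10, both Unknown, WT and with all 3 genes present, were the only neurons where the whole trio reached 1 FPKM. In neuron 8 the ratios to Nalcn, in FPKM, were 0.473 for Unc79 and 0.13 for Unc80. In neuron 10 they were 1.12 and 0.652. Neurons 6 and 7, both Type-1, Dbx1-derived and P3, resembled each other: Unc80 to Nalcn was 0.813 and 1.13, and Unc79 to Nalcn was 0.0661 and 0.0847. Over the 10 neurons, Pearson's r of log2(FPKM + 1) was 0.409 between Nalcn and Unc79, 0.555 between Nalcn and Unc80, and -0.143 between Unc79 and Unc80, a description of 10 libraries that differ in yield.

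**Figure D2:**
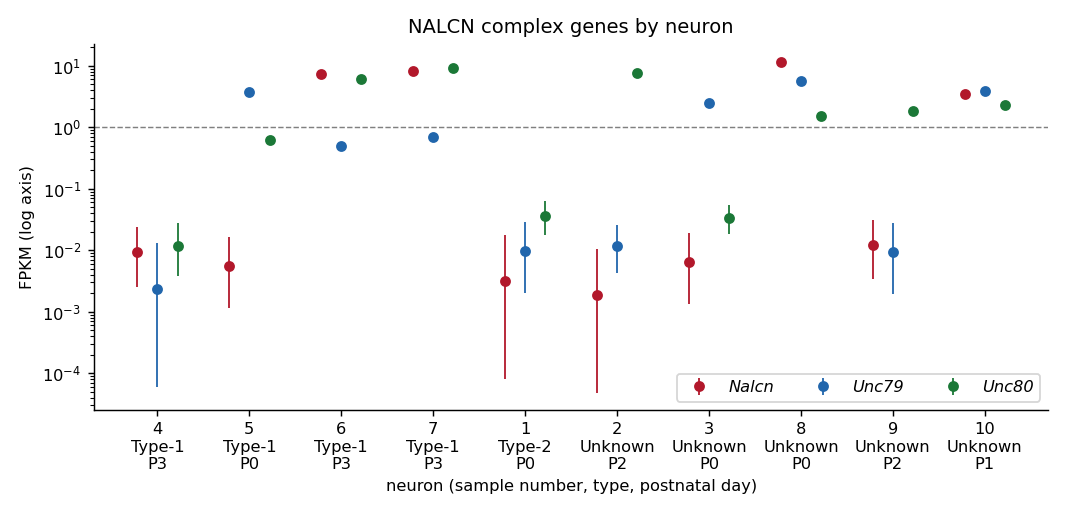
FPKM (log axis) of Nalcn, Unc79 and Unc80 in each neuron, with exact Poisson 95% intervals as vertical lines and 1 FPKM as the dashed line. All 3 genes lie above the line in neurons 8 and 10, and all 3 lie under 0.1 FPKM in neurons 1 and 4.

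The other partner of the complex, Fam155a (Nalf1), was more widely present than any of the 3. It was at 4.01, 8.57, 2.62, 5.96, 6.9, 5.69, 4.89 and 8.57 FPKM in neurons 1, 3, 4, 5, 6, 7, 8 and 10, and at 0.173 and 0.0485 FPKM in neurons 2 and 9. Neurons 1 and 4 thus held Fam155a RNA with nearly no fragments of Nalcn, Unc79 or Unc80, and neurons 2 and 9 held Unc80 with little Fam155a.

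Sorting the neurons by postnatal day, an order looked at after the values were seen, set Unc79 and Unc80 apart. In the P0 neurons 3, 5 and 8 Unc79 was the higher of the pair, and Unc80 made up 1.34%, 14.2% and 21.6% of their summed FPKM. In the P1 neuron 10 its share was 36.8%. In the P2 neurons 2 and 9 it was 99.8% and 99.5%, and in the P3 neurons 6 and 7 it was 92.5% and 93%. The remaining P0 and P3 neurons, 1 and 4, had at most 11 fragments of either gene, and their shares of 78.4% and 83.2% are not read further.

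Over all neurons of each age the levels overlapped: 0 of the 9 leak channel genes present in at least 2 neurons were higher in every P2 and P3 neuron than in every P0 neuron (0.491% of 12418 such genes were), and 0 were higher in every P0 neuron (0.37%). Kcnk10, present in 1 neuron, did not enter these counts. With neurons 1 and 4 left out, a choice made after the values were seen, Unc80 was higher in all P2 and P3 neurons (1 of 9 against 1.6% of all genes), and Unc79 and Kcnk2 were higher in the P0 neurons 3, 5 and 8 (2 of 9 against 2.05%). Unc80 then ran from 1.84 to 9.16 FPKM at P2 and P3 and from 0.0334 to 1.53 FPKM at P0, and Unc79 from 0.00953 to 0.688 FPKM and from 2.45 to 5.54 FPKM. The Kcnk2 difference did not exceed counting error, since it rests on neuron 3 with 5 fragments (interval 0.0105 to 0.0758 FPKM) against 2 in neuron 2 (0.00135 to 0.0403 FPKM). Kcnk2 entered the count only through P0 neurons, and Unc79 only through P0 neurons and the P1 neuron 10. The 2 of 9 is therefore not read as support. Among Type-1 Dbx1-derived neurons the Unc80 share was 14.2% at P0 (neuron 5) against 92.5% and 93% at P3 (6 and 7). Among Unknown WT neurons it was 1.34% and 21.6% at P0 (3 and 8) against 99.8% and 99.5% at P2 (2 and 9). The order was first seen in these same neurons, with 1 or 2 at each age, so this listing adds no separate support. Neurons of 1 age and 1 genotype may come from the same animal, which the labels do not tell. Both genotypes were recorded at P0, so the P0 neurons 3, 5 and 8 came from more than 1 animal. At P3 the only WT neuron was neuron 4, whose share is not read. The P3 shares thus rest on neurons 6 and 7, both Dbx1-derived, and the P2 shares on neurons 2 and 9, both WT. Either pair may come from 1 animal. Within a genotype, age and animal cannot be told apart.

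**Figure D3:**
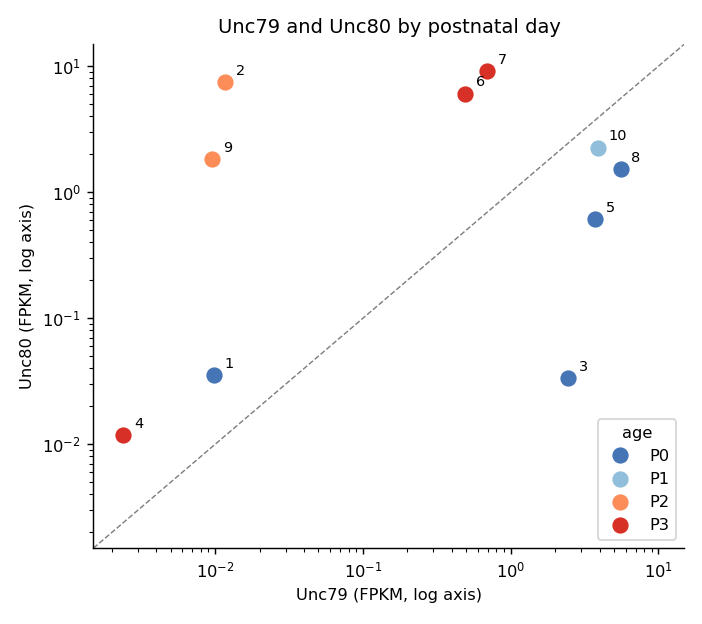
Unc80 against Unc79 (FPKM, both axes log), 1 point a neuron with its sample number, coloured by postnatal day, with the line of equal levels dashed. Neurons 3, 5, 8 (P0) and 10 (P1) lie below the line, neurons 2, 9 (P2) and 6, 7 (P3) above it, and neurons 1 and 4 hold at most 11 fragments of either gene.

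Among the K2P channels, Kcnk1 gave the highest single value. Kcnk1 encodes TWIK-1, a channel of weak inward rectification (ENSMUSG00000033998.9, chr8:125995170-126030685, plus strand). Its levels were 54.9 FPKM in neuron 3, 13 in neuron 5, 20.2 in neuron 6 and 4.6 in neuron 10, with 3819, 1068, 1421 and 314 fragments. The other 6 neurons held between 0 and 5 fragments. Neuron 3 alone carried 59.1% of the sum over neurons. That neuron also had the highest summed astrocyte marker level, 6640 FPKM, of which Apoe gave 5050 FPKM. Of the 10 astrocyte genes 8 were present in it, with Gfap and Fgfr3 at 0. Neuron 8 had 9 of them present and 0 fragments of Kcnk1. The sums of the same list were 409, 151 and 395 FPKM in the other Kcnk1-positive neurons and from 449 to 5120 FPKM in the negative ones. The 5120 FPKM was that of neuron 4, where Apoe gave 4990 FPKM and 4 of the 10 genes were present. The part of these markers in the Kcnk1 level was not tested.

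Kcnk12, the THIK family member (ENSMUSG00000050138.8, chr17:87745801-87797994, minus strand), was present only in Type-1 neurons. It was at 1.34, 12.1 and 13.7 FPKM in neurons 4, 5 and 6, from 78, 873 and 851 fragments, and had no fragment in the Type-1 neuron 7. The 5 Unknown neurons held 1 fragment among them, in neuron 9, and the Type-2 neuron held 2. The intervals of neurons 5 (11.3 to 12.9 FPKM) and 6 (12.8 to 14.7 FPKM) met. Because neuron 7 had none, the Type-1 and Unknown ranges overlapped at 0. Without neuron 7 they did not, as was so for 1 of the 9 genes present in at least 2 neurons and for 1.32% of 12418 such genes. Kcnk12 entered that count only through Type-1 neurons, and neuron 7 is the Type-1 neuron without a fragment. The gap followed from the neuron left out and is not read as support. Without neuron 4, in which the microglial list was high, 2 of 3 Type-1 neurons were positive. Those 3 were all Dbx1-derived and the 5 Unknown neurons all WT, so type and genotype cannot be told apart there.

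The stretch-sensitive channels were unevenly spread. Kcnk4, which encodes TRAAK (ENSMUSG00000024957.9, chr19:6923966-6934515, minus strand), was present in each of neurons 5 to 10, at 23.4, 8.42, 9.78, 2.14, 7.4 and 2.71 FPKM. In neurons 1 to 4 it had 4, 16, 0 and 1 fragments, the highest level being 0.0988 FPKM in neuron 2. Its exons overlap Catsperz, a sperm channel gene on the same strand, which had 356 fragments in neuron 5 and 11 in neuron 6 and none in the others, so a small part of the Kcnk4 count could be shared in those neurons.

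Kcnk2, encoding TREK-1 (ENSMUSG00000037624.15, chr1:189207930-189402273, minus strand), was present in 2 neurons only, both P0: neuron 5 at 4.02 FPKM (727 fragments) and neuron 8 at 5.51 FPKM (724 fragments). The other 8 neurons held 5 fragments or fewer. Kcnk10, encoding TREK-2 (ENSMUSG00000033854.10, chr12:98429437-98578310, minus strand), was the rarest of the 10. It reached 2.03 FPKM in neuron 7 (458 fragments) and 0.343 FPKM in neuron 8 (80 fragments), had 1 fragment each in neurons 1 and 9, and none in the other 6.

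The acid-sensitive TASK channels were each present in 6 neurons. Kcnk3, encoding TASK-1 (ENSMUSG00000049265.7, chr5:30588170-30625271, plus strand), was at 17.1 FPKM in neuron 2, 9.78 in neuron 5 and 5.03, 4.95, 4.87 and 4.45 FPKM in neurons 7, 8, 9 and 10. The intervals of those last 4 overlapped one another, running from 4.08 to 5.49 FPKM in all, so they did not differ beyond counting error. In neuron 6 it was at 0.176 FPKM, from 22 fragments, and neurons 1, 3 and 4 held 2 fragments at most. An antisense gene over its exons, Gm9899, had 697 fragments in neuron 6, fewer in neurons 5, 8 (36 fragments) and 10 (1 fragment), and none in the others. The counting is not stated to use strand, so reads of this pair cannot be told apart where the exons meet.

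Kcnk9, encoding TASK-3 (ENSMUSG00000036760.7, chr15:72501089-72546340, minus strand), was the K2P gene with the most fragments. It had 12298 in neuron 5 (27.3 FPKM), 3618 in neuron 6 (9.34 FPKM) and 3667 in neuron 8 (11.2 FPKM). Neurons 2, 7 and 10 had 2.53, 4.47 and 3.95 FPKM, neuron 9 had 0.475 FPKM from 129 fragments, and neurons 1, 3 and 4 had 8, 0 and 2 fragments. TASK-1 and TASK-3 subunits can pair in 1 channel, and both genes were present in neurons 2, 5, 7, 8 and 10. The Kcnk9 to Kcnk3 ratio in FPKM was 0.148 in neuron 2, 2.79 in neuron 5, 0.888 in neuron 7, 2.27 in neuron 8 and 0.887 in neuron 10. It was 53.2 in neuron 6 and 0.0977 in neuron 9, where 1 of the pair lay under 1 FPKM. In neuron 6 the Kcnk3 side rests on 22 fragments and is uncertain because of the overlap with Gm9899.

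No single K2P channel dominated across neurons. Summed over the 7 genes, the level was 89.6 FPKM in neuron 5, 51.8 in neuron 6, 21.4 in neuron 7 and 1.41 in neuron 4, the Type-1 neurons. The Unknown neurons 2, 3, 8, 9 and 10 had 19.7, 54.9, 24.2, 12.8 and 15.7 FPKM, and the Type-2 neuron had 0.169 FPKM from 18 fragments. Kcnk3 made up 86.6% of the sum in neuron 2, Kcnk1 99.9% in neuron 3 and Kcnk12 95.2% in neuron 4. In neuron 4 that share rests on 78 of 85 fragments, and Kcnk6 and Kcnk13, which are outside the 7 genes, were higher than Kcnk12 there (2.89 and 2.54 against 1.34 FPKM). In the others the leading gene held less: Kcnk9 30.5% and Kcnk4 26.1% in neuron 5, Kcnk1 39% and Kcnk12 26.4% in neuron 6, Kcnk4 45.7% and Kcnk3 23.5% in neuron 7, Kcnk9 46.4% and Kcnk2 22.8% in neuron 8, Kcnk4 57.8% and Kcnk3 38% in neuron 9, and Kcnk1 29.3% and Kcnk3 28.3% in neuron 10. By fragments without a length correction, the leading gene became Kcnk9 in neurons 6, 7 and 10.

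**Figure D4:**
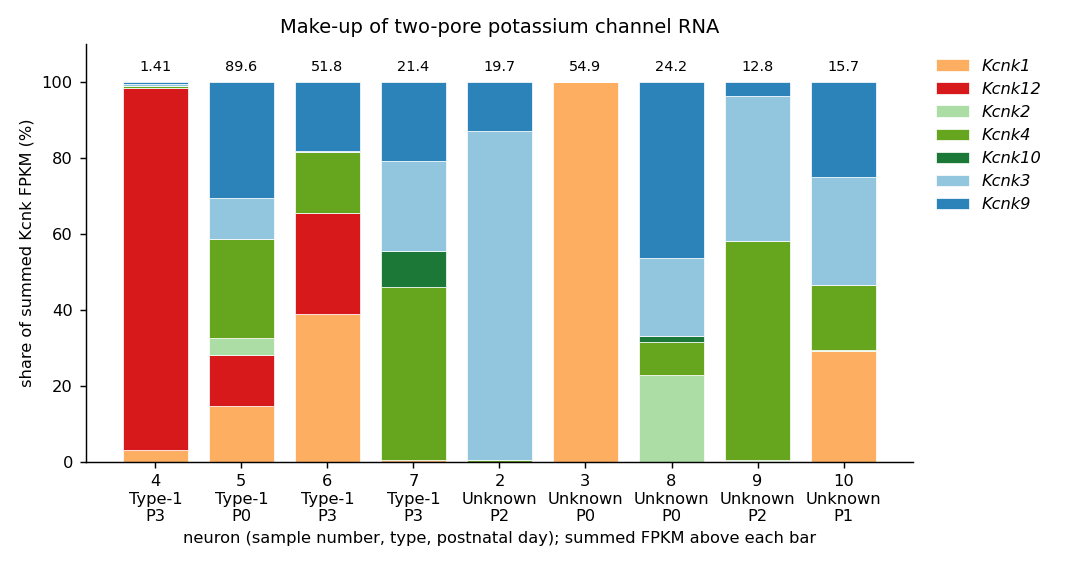
Share of the summed FPKM of the 7 Kcnk genes held by each gene (stacked bars, %), with the summed FPKM above each bar. Neuron 1, with 18 fragments over the 7 genes, is left out. Kcnk1 fills the bar of neuron 3 (99.9%), Kcnk12 that of neuron 4 (95.2%) and Kcnk3 most of that of neuron 2 (86.6%), and the other neurons mix several channels.

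Set against the potassium leak genes, Nalcn RNA came to 0.144, 0.379, 0.484 and 0.221 times the K2P sum in neurons 6, 7, 8 and 10. Neuron 5, with the highest K2P sum of the 10, held 3 fragments of Nalcn. Between pairs of the 10 genes the median r over the 10 neurons was 0.283, and 13 of 45 pairs exceeded 0.5. The closest pair was Kcnk4 with Kcnk9 (0.734), followed by Unc79 with Kcnk2 (0.701) and Kcnk2 with Kcnk9 (0.693). These values share the yield of the libraries, as neurons 1 and 4 were low for nearly all of the genes.

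By neuron type, the levels overlapped for every one of the 9 genes present in at least 2 neurons. None was higher in each Type-1 neuron than in each Unknown neuron, where 0.741% of 12418 genes were, and 0 were lower throughout, where 0.483% were. Kcnk4 came to 10.4 ± 9.68 FPKM (SD, n = 4) in Type-1 and 2.47 ± 3.01 FPKM (SD, n = 5) in Unknown neurons, Kcnk9 to 10.3 ± 12 and 3.64 ± 4.53 FPKM, and Kcnk3 to 3.75 ± 4.65 and 6.27 ± 6.39 FPKM. Without neuron 4 the Type-1 means were 13.9 ± 8.28 FPKM for Kcnk4, 13.7 ± 12 FPKM for Kcnk9 and 5 ± 4.8 FPKM for Kcnk3 (SD, n = 3). With neuron 4, each difference of means was smaller than the SD of at least 1 of its groups. Without neuron 4, Kcnk4 was higher in each of the 3 Type-1 neurons (8.42 to 23.4 FPKM) than in each Unknown neuron (0 to 7.4 FPKM), as 1 of 9 genes against 3.75% of all, and 0 were lower throughout (1.59%). The Type-2 neuron had none of the 10 genes at 1 FPKM. Its highest level was 0.0474 FPKM, for Kcnk12, and its 23.9% of seen genes at 1 FPKM lay at the low end of the range over neurons, 23.8% to 43.8%.

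**Figure D5:**
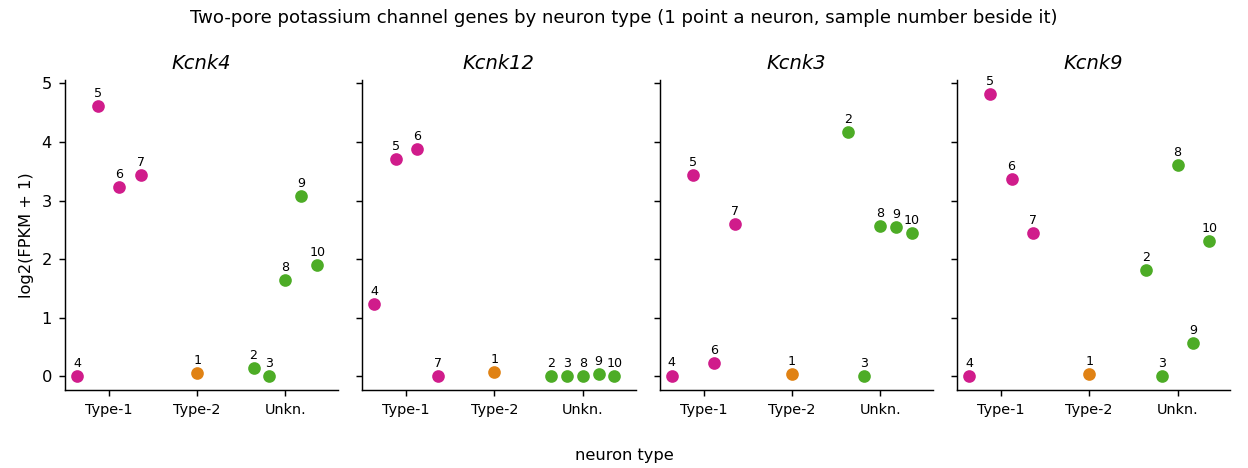
log2(FPKM + 1) of Kcnk4, Kcnk12, Kcnk3 and Kcnk9 by neuron type, 1 point a neuron with its sample number above it (Unkn., Unknown). Kcnk12 is at 1 FPKM or more only in Type-1 neurons 4, 5 and 6, and for Kcnk4 the Type-1 neurons 5, 6 and 7 lie above all Unknown neurons while neuron 4 does not.

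By genotype, 0 of the 9 genes were higher in each Dbx1-derived than in each WT neuron (1.34% of all genes were), and 0 the other way (1.02%). The Dbx1-derived group includes the Type-2 neuron, without which Kcnk4 separated the groups (1 of 9 against 3.31% of all genes). That neuron, at 0.0419 FPKM, was the Dbx1-derived neuron within the WT range, so the gap followed from the neuron left out. Neurons 5, 6 and 7, which remain, are also those of the Type-1 comparison without neuron 4. The gap is therefore not a separate result and is not read as support. Kcnk12 was at 6.46 ± 7.46 FPKM (SD, n = 4) in Dbx1-derived and 0.228 ± 0.547 FPKM (SD, n = 6) in WT neurons, the latter carried by neuron 4: without it the WT mean was 0.00459 ± 0.0103 FPKM (SD, n = 5). Those 5 WT neurons are the Unknown neurons, so this is not a contrast separate from that of the types. The samples with more cDNA, 5 to 10, had Kcnk4 above all of samples 1 to 4, which made 1 of 9 genes where 4.48% of all genes did so, and 0 were lower throughout (0.411%). Kcnk4 entered that count only through samples 5 to 10. Since 3 of the 4 Type-1 neurons and none of the Type-2 lie in samples 5 to 10, the type, the genotype and the yield behind the Kcnk4 values cannot be told apart.

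Transmitter markers give a further description of the positive neurons. Slc17a6 reached 101, 158, 156 and 230 FPKM in neurons 5, 6, 7 and 8 and no more than 1.85 FPKM elsewhere. Gad1, the GABA-synthesising enzyme, reached 71.8, 37.2 and 92 FPKM in neurons 1, 3 and 10 and 8.28 FPKM in neuron 8. The glycine transporter Slc6a5 was at 146 FPKM in neuron 1, at 8.6 FPKM in neuron 10 and at 0.178 FPKM at most elsewhere. Neuron 1, the Type-2 and Dbx1-derived neuron, thus held high Gad1 and Slc6a5 with Slc17a6 at 0.26 FPKM. Nalcn was present in 3 of the 4 neurons with high Slc17a6 and, of the 3 with high Gad1, in neuron 10. All 4 of the former lie in samples 5 to 10, and neurons 1 and 3 are among the samples with the least cDNA, so transmitter and yield cannot be told apart here.

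The genes whose pattern over the 10 neurons was most like that of a leak channel gene were sought by Pearson's r of log2(FPKM + 1) over 8968 genes present in at least 3 neurons and at 10 FPKM or more in at least 1. Closest to Nalcn were B830017H08Rik (0.999), Sema6c (0.996) and Gm45619 (0.992). Unc79 was followed most closely by Sephs1 (0.951), and Unc80 by Srgap1 (0.955). For the K2P genes the closest were Klhl14 for Kcnk1 (0.988), Ctdp1 for Kcnk12 (0.970), Klhl12 for Kcnk4 (0.955), Akr1e1 for Kcnk3 (0.986) and Xrcc1 for Kcnk9 (0.972). The next genes were Prps2 and Bivm for Unc79, Cbarp and Ndufaf2 for Unc80, Foxo6 and Med17 for Kcnk1, Gm3739 and Gm3488 for Kcnk12, Pcdhgc4 and Tmem35a for Kcnk4, Ift22 and Timm10 for Kcnk3, and Ccsap and Gpc5 for Kcnk9, with r between 0.930 and 0.985. Gm3739 and Gm3488 belong to a family of near-identical copies, so their values are uncertain. The number of genes with r over 0.9 was 44 for Nalcn, 6 for Unc79, 7 for Unc80, 19 for Kcnk1, 13 for Kcnk12, 49 for Kcnk4, 15 for Kcnk3 and 18 for Kcnk9. Ranked by Spearman's rho, 5 of these 24 genes were again among the 3 closest.

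Of 23 further leak-related genes found in the files, 10 were present in at least 3 neurons, 6 in 1 or 2 and 7 in none. Fam155a is described above. The kinases of the SRC family, which act on NALCN, were common: Fyn was present in 9 neurons at 51.5 ± 37 FPKM (SD, n = 10) and Src in 7 at 4.09 ± 4.82 FPKM. Tacr1, the substance P receptor, which excites preBötC neurons and opens NALCN, was at 14, 33 and 64 FPKM in neurons 7, 8 and 9, whereas the remaining 7 neurons reached 0.0294 FPKM at most. Nalcn and Tacr1 were thus both present in neurons 7 and 8. Of the G proteins that close TASK and TREK channels, Gnaq was present in 6 neurons (5.2 ± 6.48 FPKM) and Gna11 in 9 (33.9 ± 26.2 FPKM). The TREK and TASK partners Akap5 and S100a10 were present in 4 and 5 neurons.

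The glial inward rectifiers Kcnj10 and Kcnj16 were each present in 3 neurons. Kcnj16 stood at 50.6, 53.6 and 20 FPKM in neurons 2, 3 and 8, and Kcnj10 at 48.5, 4.54 and 3.58 FPKM in neurons 2, 4 and 6. Neurons 2, 3 and 8 also had 7, 8 and 9 of the 10 astrocyte genes at 1 FPKM, against 2 to 4 in the other neurons. The 6 genes in 1 or 2 neurons are named after their values were seen: Kcnk5 (TASK-2) at 9.03 FPKM in neuron 7, Kcnk15 at 13.9 and Kcnj12 at 3.9 FPKM in neuron 6, and Kcnj14 at 16.4 and 19.5 FPKM in neurons 6 and 7, with Kcnk6 at 2.89 and Kcnk13 at 2.54 FPKM in neuron 4. Kcnk13 (THIK-1) is known as a microglial potassium channel, and neuron 4 was the neuron with the highest microglial list.

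Values under 1 FPKM were set against the reads that the other 9 libraries could have given. Such reads were estimated from genes nearly private to 1 neuron, and made up between 0% and 0.133% of a library's private-gene counts over 90 pairs of libraries (median 0%). Libraries 5, 6, 7, 8 and 10 had only 3, 5, 4, 5 and 4 such genes, against 22 to 57 in the others. The reads expected from those libraries are therefore rough. The 58 leak channel values under 1 FPKM held 1149 fragments, where 81.4 were expected from other libraries. Of these values, 8 exceeded 3 times their expected number by more than 5: Unc79 in neurons 6 and 7, Unc80 in neurons 3 and 5, Kcnk4 in neuron 2, Kcnk10 in neuron 8, Kcnk3 in neuron 6 and Kcnk9 in neuron 9. Kcnk3 in neuron 6 is uncertain because of the overlap with Gm9899. The other 50 held 89 fragments in all, 11 at most, where 55.5 were expected. Nalcn was in none of the 8, but its 6 negative neurons held 4 fragments at most. No value of 5 fragments or fewer could exceed the limit, so the source of these fragments is not settled.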

How the data were processed

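The data are 10 libraries, each from the cytoplasm of 1 preBötC neuron. The authors amplified full-length cDNA (SMART-Seq v4), trimmed reads with bbduk, aligned them with STAR 2.7.7a to GRCm38 and counted fragments per gene with featureCounts. They deposited raw counts, gene lengths and FPKM values. The deposited FPKM was used as given, and recomputation from the counts differed by at most 3.33e-11%. Options for fragments that match several genes were not given in the sources used here.

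Counts received exact Poisson 95% intervals, and ratios and leading channels needed 10 fragments. No test was made. Groups were compared by whether their ranges overlapped, over the 12418 genes at 1 FPKM in at least 2 neurons. Likeness was Pearson's r of log2(FPKM + 1), and each of the 8 genes present in at least 3 neurons has its 3 closest genes named. Reads from other libraries were estimated on genes holding 3000 counts or more in a single library and no more than 1% of that elsewhere. This limit was chosen after the number of such genes was seen. The estimator was tested on simulated data with the same rate for all pairs of libraries, unlike the rates found here. Alternatives were TPM, limits of 0.5 and 2 FPKM, a pseudocount of 0.1, counts of 1 or 2 set to 0, thinning to 21392146 fragments, and leaving out neurons. Positions are from GENCODE M21 and promoters from RefSeq. Fam155b was not analysed here. Members, marker lists and other leak genes were chosen with earlier results of these data known. Tables were read with pandas 2.3.3, intervals taken from SciPy 1.17.1, arrays handled by NumPy 2.4.6 and plots drawn with Matplotlib 3.10.9, under Python 3.11.15.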

Additional observations from a re-analysis of the deposited data

Results flagged for a closer look

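Within the neuron types and over all neurons, 6 of 30 groups examined had 1 neuron far from the rest by Dixon's criterion on log2(FPKM + 1), and chance gives about 1 in 20 for values without ties. That rate does not hold for values at or near 0: of the same groups of all 16546 genes present in at least 1 neuron 34.5% met the criterion, against 20% here, and in 3 of the 6 all other neurons were at 0. Kcnk2 stood at 4.02 FPKM in neuron 5, with the other Type-1 neurons at 0, and at 5.51 FPKM in neuron 8, with the next Unknown neuron at 0.0325 FPKM. Kcnk10 stood at 2.03 FPKM in neuron 7, with the other Type-1 neurons at 0 and the next of all neurons at 0.343 FPKM. That next value, in neuron 8, itself stood apart among the Unknown neurons, where the nearest was 0.00516 FPKM. Kcnk12 at 0.023 FPKM in neuron 9 rests on 1 fragment, with the other Unknown neurons at 0.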

How the results depend on the processing

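Of 140 alternative means of single genes, 134 moved by less than the SD over neurons, a wide limit that exceeds the mean for all 10 genes. Single neurons moved means by over 1.5 times: Kcnk1 from 9.29 to 4.22 FPKM without neuron 3, Kcnk10 from 0.239 to 0.0393 without neuron 7, Kcnk12 from 2.72 to 1.68 without neuron 5 and 1.5 without neuron 6, Kcnk2 from 0.96 to 0.621 without neuron 5 and 0.454 without neuron 8, and, without neuron 5, Kcnk4 from 5.4 to 3.4 and Kcnk9 from 5.93 to 3.56. Means taken on log2(FPKM + 1) and turned back to FPKM were lower for all 10 genes, such as 2.19 for Kcnk1, 1.32 for Nalcn and 2.73 for Kcnk9. With a pseudocount of 0.1 they were lower again. The 6 moves beyond the SD were all means in TPM, a scale on which most values here are larger: 8.44 for Nalcn, 4.39 for Unc79, 7.48 for Unc80, 15 for Kcnk4, 11.1 for Kcnk3 and 16.6 for Kcnk9. The 42 values at 1 FPKM became 44 at 0.5 FPKM, 39 at 2 FPKM and 45 in TPM. Of 9 leading channels, 6 remained by fragments without length, while TPM leaves them (9) as they are by construction. Of the 24 genes most like a leak channel gene, 5 remained under Spearman's rho and 14 without sample 4.

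The counts of genes without overlap rest on single neurons, and each is of 9 genes, with the share of all genes under the same omission. Higher in Type-1 than in Unknown neurons were 0 genes, 1 without sample 4 (Kcnk4, 3.75%), and from 0 to 1 with each neuron left out in turn (also Kcnk12 without neuron 7, 1.32%). The reverse count ran from 0 to 1, where Kcnk2 without neuron 5 rests on 1 fragment in neuron 9 against 0 (0.99%), and that of Dbx1-derived over WT from 0 to 1 (Kcnk4 without neuron 1, 3.31%). For P2 and P3 over P0 it was 1 without sample 4 (Unc80, 1.12%), 1 without samples 1 and 4 (1.6%), and from 0 to 1 with each neuron left out. For P0 over P2 and P3 it was 2 without samples 1 and 4 (2.05%) and from 0 to 2 with each left out (Unc79 and Kcnk2 without neuron 1, 1.38%). For samples 5 to 10 over 1 to 4 it was 2 in TPM (Nalcn and Kcnk4, 5.65%) and from 1 to 4 with each neuron left out: 4 without neuron 2 (Unc80, Kcnk4, Kcnk3 and Kcnk9, 7.81%), 2 without neuron 5 (Nalcn and Kcnk4, 4.98%) and 2 without neuron 9 (Kcnk4 and Kcnk9, 6.3%). Some of these genes reached 1 FPKM in no neuron of the lower group: Kcnk12 in Unknown neurons, and Unc79 and Kcnk2 at P2 and P3. The same held for Nalcn and Kcnk4 in samples 1 to 4, and without neuron 2 also for Unc80, Kcnk3 and Kcnk9. Such counts are not read as support. No paired analysis was possible because no result comes from a test. Counting error is small for genes at 1 FPKM, and how much 2 neurons of 1 kind vary was not measured beyond these 10.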
